A study of Mus musculus with 6 samples.

Results

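Purinergic signalling and adenosine clearance in astrocytes were followed through 10 genes, chosen by symbol from the 45777 genes in the deposited table. They are the ATP and ADP receptors P2ry1, P2rx4 and P2rx7, the adenosine receptors Adora1 and Adora2b, the cell-surface enzymes Entpd1, Entpd2 and Nt5e, the adenosine kinase Adk and the nucleoside transporter Slc29a1. All 10 had at least 1 read in every sample, as did 22337 genes of the table.

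The RNA came from tdTomato-positive brain cells of male Aldh1l1-CreERT2; tdTomato fl/fl mice on a C57BL/6 background, in which the Aldh1l1 promoter drives a tamoxifen-dependent Cre. Mice of both groups received tamoxifen for 5 days before treatment. The vehicle group (3 samples, labelled normoglycemic) received sodium citrate buffer at 8 weeks of age, and the STZ group (3 samples) received a single injection of streptozotocin at 150 mg/kg, a toxin of insulin-producing cells, and only mice above the study's blood glucose limit were kept. Brains were taken 21 days after the injection, and each sample pooled sorted cells of 3 mice, so the p-values below measure the spread between pools. The genotype label of the samples reads WT, and the transgenes are given in the study's methods.

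Cells release ATP through channels and vesicles, and it acts on P2X channels and on P2Y receptors, which couple to G proteins. Ectonucleotidases on the cell surface strip its phosphates in steps to ADP, AMP and adenosine, and adenosine acts on receptors of its own. Astrocytes take part at every step: they release ATP, answer it with calcium signals, and keep extracellular adenosine low by taking it up through equilibrative transporters and phosphorylating it with adenosine kinase. The comparison addresses whether the transcripts of these steps differed between astrocytes of hyperglycemic and normoglycemic mice.

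The promoters of Adora2b and P2ry1 are shown because these were the members with an unadjusted p under 0.05 in the comparison below. Each runs from 250 bases before to 50 bases after the RefSeq gene start (GRCm38.p6), at chr11:62248734-62249033 and chr3:61002535-61002834, both on the plus strand. Capitals mark the GC box GGGCGG, searched on both strands, so that a match on the minus strand reads CCGCCC.
Adora2b: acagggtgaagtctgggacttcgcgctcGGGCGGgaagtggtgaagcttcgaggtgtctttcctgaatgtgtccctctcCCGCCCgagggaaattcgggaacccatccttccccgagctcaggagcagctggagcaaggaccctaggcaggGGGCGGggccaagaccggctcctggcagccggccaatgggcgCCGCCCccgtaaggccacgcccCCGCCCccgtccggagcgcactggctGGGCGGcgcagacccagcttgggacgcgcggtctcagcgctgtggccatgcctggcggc
P2ry1: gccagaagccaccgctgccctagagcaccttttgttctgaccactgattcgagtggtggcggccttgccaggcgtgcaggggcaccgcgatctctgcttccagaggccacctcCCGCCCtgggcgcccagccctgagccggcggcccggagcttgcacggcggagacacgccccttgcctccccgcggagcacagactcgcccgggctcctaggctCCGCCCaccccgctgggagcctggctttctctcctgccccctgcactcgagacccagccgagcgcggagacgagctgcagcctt

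The Adora2b promoter held 6 GC boxes and the P2ry1 promoter 2, and 35.7% of 32851 promoters of the same length held at least 1. G and C made up 70.0% of the Adora2b window and 70.7% of the P2ry1 window, with 27 and 25 CG dinucleotides, while the median promoter had 52.7% and 7. Members further from an unadjusted p of 0.05 had like windows, such as Nt5e with 71.0%, 23 CG dinucleotides and 4 GC boxes, and a start of Adk with 75.0%, 33 and 4. Neither window contained the E box CACGTG (in 7.15% of promoters), the hypoxia factor core ACGTG, which lies within the E box (19.6%), or the cAMP response element TGACGTCA (1.79%), each searched on both strands.

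The samples held 52529048 to 58749115 counts. Astrocyte markers were abundant in every sample: the summed level of 10 genes, among them Aldh1l1, Aqp4 and Slc1a3, was 14744 to 18002.5 TPM in vehicle and 14995 to 16520 in STZ. TPM is the authors' measure of transcript abundance, corrected for gene length and library size. RNA of other cell types was present too, and none of the marker lists was free of signal. The 9 choroid plexus and ependymal markers, led by the thyroxine carrier Ttr, summed to 10623 to 29991 TPM in vehicle and 16250 to 26993 in STZ, and 12 microglial markers to 898 to 1325 and 882 to 1245. The 9 oligodendrocyte markers summed to 798 to 2091 TPM in vehicle and 1038 to 2900 in STZ, with replicate 1 the highest in each group. Of the 10 endothelial markers, all had positive log2 fold changes and 8 were higher in STZ at an unadjusted edgeR p under 0.05, where 5.63% of all genes were (49.9 to 154 TPM in vehicle, 140.0 to 274 in STZ). Of 8 mural markers, 7 log2 fold changes were positive and 4 had such a p (88.1 to 131 and 126 to 175 TPM). edgeR called 0 markers of either list after adjustment, and DESeq2 called Nostrin of the endothelial and Acta2, Myh11, Rgs5 and Tagln of the mural markers. Of all marker genes only the neuronal Slc17a7 was at 0 in any sample. In such bulk samples, fewer cells of a type and less RNA per cell cannot be told apart.

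**Figure D1:**
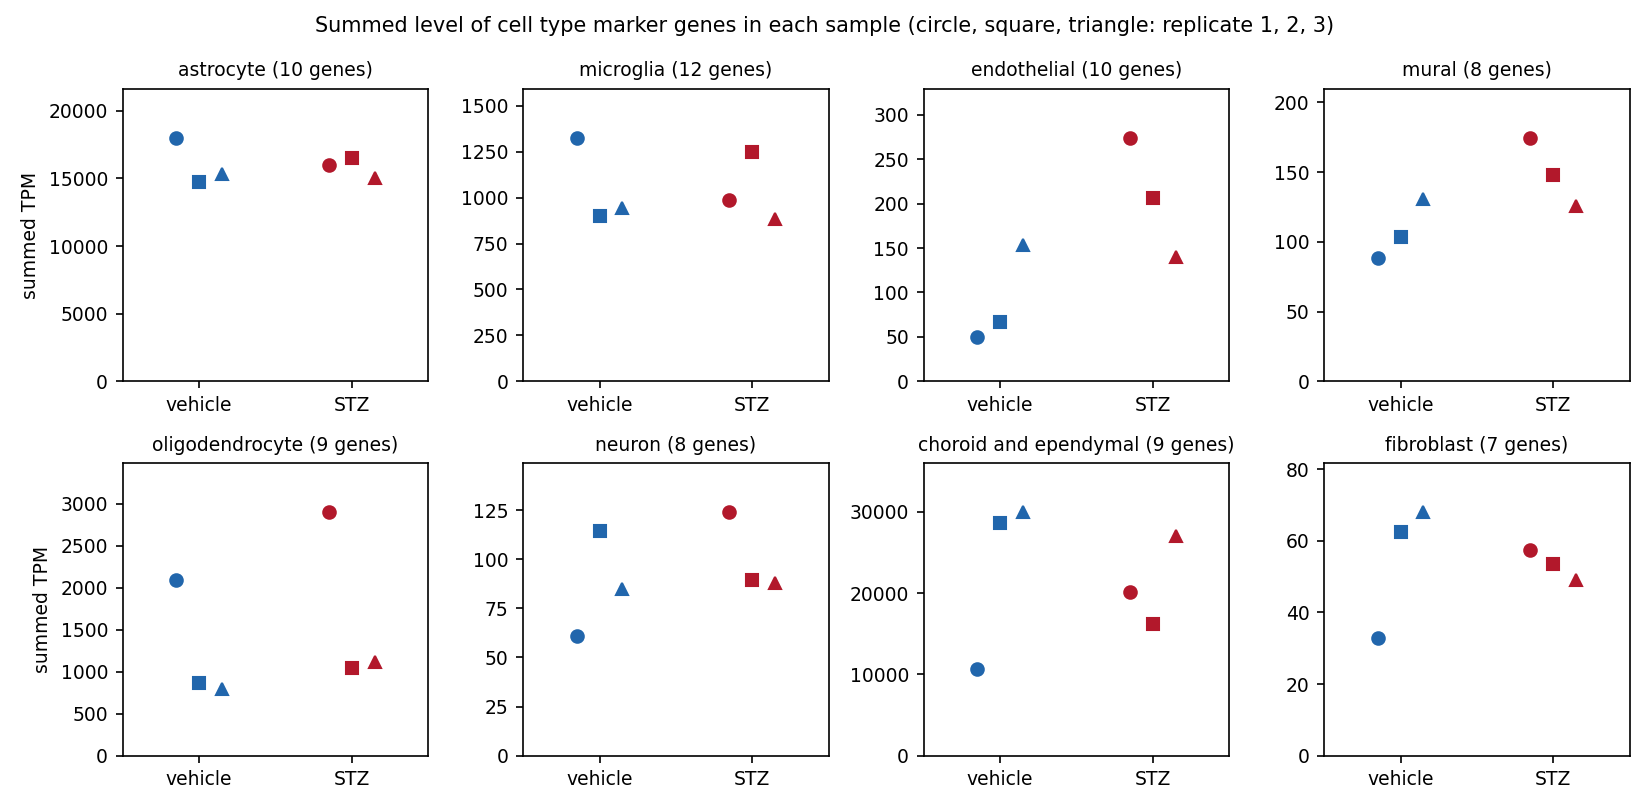
Summed TPM (linear axis from 0) of marker genes of 8 cell types in each of the 3 vehicle and 3 STZ samples, with the replicate number given by the symbol. The astrocyte sums lie between 14744 and 18002.5 in all samples, while the endothelial sums reach from 49.9 in vehicle replicate 1 to 274 in STZ replicate 1.

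The 10 genes spanned a wide range of levels in these astrocytes. Entpd2, the ectonucleotidase that turns ATP mainly into ADP, and Adk, which clears adenosine by phosphorylation, stood at the top with 520 ± 43.3 and 474 ± 40.7 TPM (SD over all 6 samples). Adora2b, a Gs-coupled adenosine receptor of low affinity, followed at 178 ± 30.9 TPM. Of all 45777 genes in the table, of which only 22337 had a read in every sample, 98.0% had a lower mean TPM than Adora2b. Slc29a1, the equilibrative transporter ENT1, and Adora1, the Gi-coupled adenosine receptor, were next at 58.3 ± 8.29 and 55.8 ± 9.47 TPM. The ATP-gated channels P2rx4 and P2rx7 stood at 28.0 ± 4.01 and 14.98 ± 3.99 TPM. Entpd1 (CD39), which takes ATP and ADP to AMP, stood at 13.6 ± 1.45 TPM, and P2ry1, the ADP receptor that couples to calcium release, at 7.92 ± 1.94. Nt5e (CD73), which makes adenosine from AMP, was lowest at 3.73 ± 0.323 TPM. It lay above 72.6% of the same 45777 genes, many of which had no reads in some or all samples.

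Several neighbours in this order could not be separated. Entpd2 lay above Adk in 4 of 6 samples, Slc29a1 above Adora1 in 4 of 6 and P2rx7 above Entpd1 in 5 of 6, and in each pair the ranges over samples overlapped. The ranges of Entpd1 and P2ry1 touched (11.2 to 15.3 and 5.98 to 11.3 TPM), but Entpd1 was higher within all 6 samples. The other neighbours did not overlap.

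**Figure D2:**
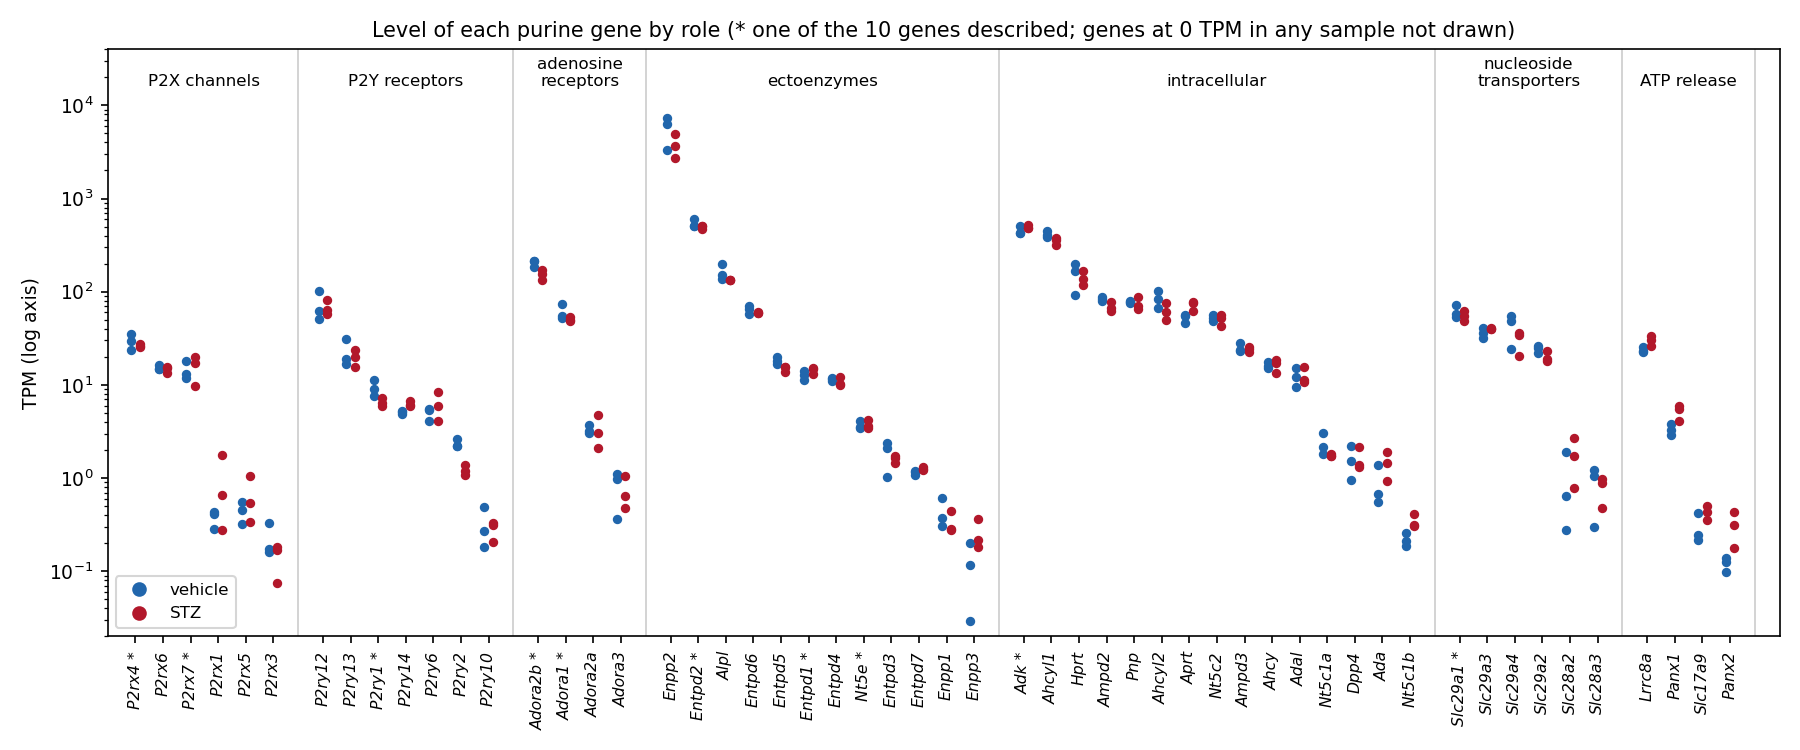
TPM (log axis) of the purine genes in each sample, grouped by role and ordered by mean level, with vehicle in blue and STZ in red and an asterisk at the 10 genes described. Entpd2 and Adk have means of 520 and 474 TPM and Nt5e of 3.73, and within a role the levels spread over orders of magnitude.

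A gene was called where its fold change exceeded 1.5 and its adjusted p lay below 0.05 in edgeR's quasi-likelihood test, with Benjamini-Hochberg adjustment over all genes tested. None of the 10 genes was called. In this fit the fold change of every member was under 1.5, so that none could be called at any p. Without the fold limit the count of members called was also 0. Of all genes tested, edgeR called 5, which is 0.0224%. With DESeq2, which called 1.05% of all genes, the count of members was also 0. At an unadjusted p under 0.05, Adora2b and P2ry1 were lower in STZ and no member was higher. That is 2 of 10, where 11.3% of all genes had such a p (5.65% lower and 5.63% higher), and DESeq2 added Adora1. Of the 10 log2 fold changes, 7 were negative, with a median of -0.15, against 48.1% negative and a median of 0.01 over all genes tested. The 10 astrocyte markers had the same counts, 7 negative with a median of -0.15. At an unadjusted edgeR p under 0.05, 2 of these markers were lower and 1 higher in STZ, each with groups apart. Aqp4 and Aldh1l1 were lower, at log2 fold changes of -0.48 and -0.22 and adjusted edgeR p of 0.280 and 0.398 (0.0169 and 0.313 with DESeq2). Gjb6 was higher, at 0.27 and an adjusted edgeR p of 0.390 (0.209 with DESeq2). Aldoc and Sox9 were also positive, at 0.16 and 0.02. The part of these markers in the members' values was not tested.

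By normalized CPM, which are counts scaled to a common library size with TMM factors, the groups did not overlap for Adora2b, P2ry1, Adora1 and Entpd2, all lower in STZ. These are 4 of 10 genes, where 18.5% of all genes had groups apart and 9.85% lay lower in STZ. On the TPM scale only Adora2b and P2ry1 were apart, 2 of 10 against 17.2% of all genes.

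**Figure D3:**
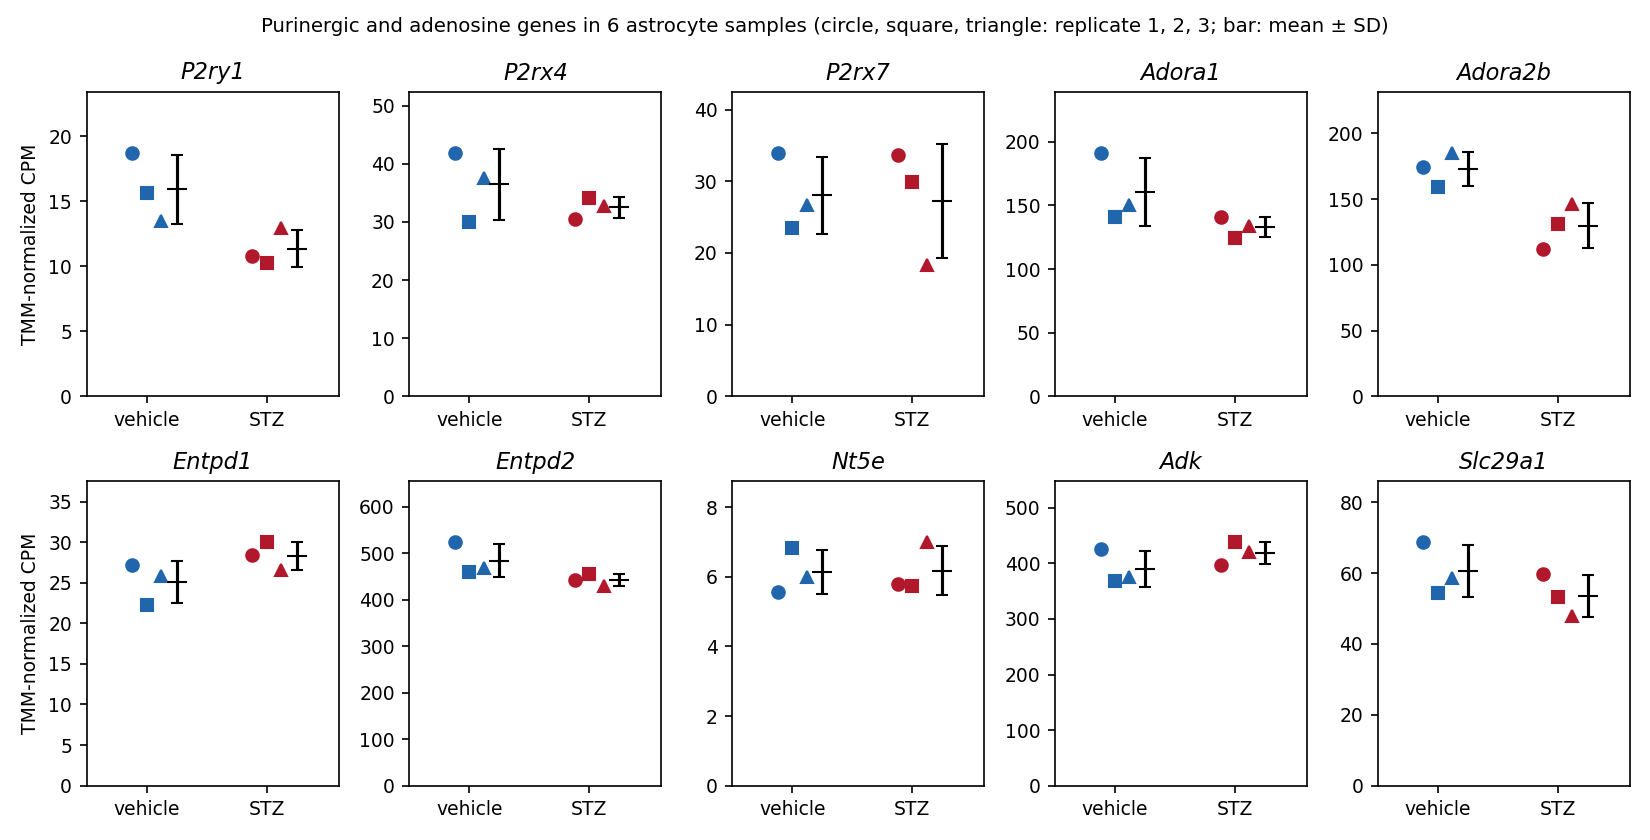
Normalized CPM (linear axes from 0) of the 10 genes in the 3 vehicle and 3 STZ samples, with mean ± SD beside the points and the replicate number given by the symbol. For Adora2b all STZ samples lie at or below 146.4 CPM and all vehicle samples at or above 159.4, while the P2rx7 groups cover each other.

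**Figure D4:**
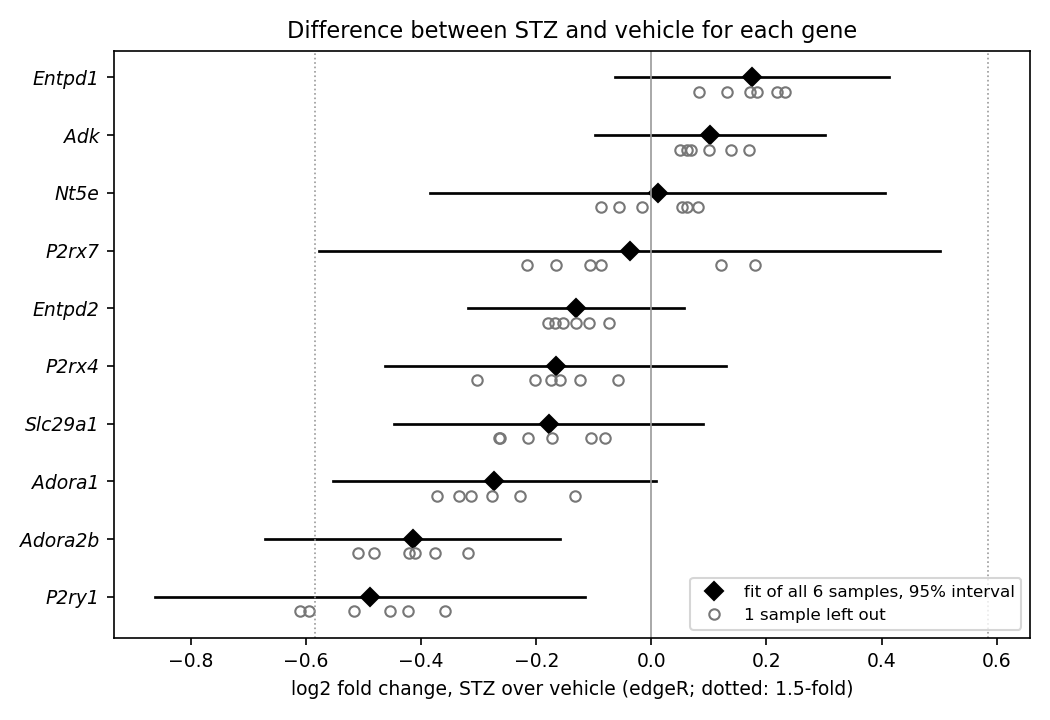
Log2 fold change of STZ over vehicle for each gene from edgeR, with its 95% interval (line) and the values with 1 sample left out (open circles); dotted lines mark a fold of 1.5. The intervals of P2ry1 and Adora2b lie below 0 and the others include 0, and for P2rx7 and Nt5e the open circles fall on both sides of 0.

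Among the adenosine receptors, Adora2b (NCBI gene 11541, chr11:62248984-62266452, plus strand, GRCm38.p6) was lower in STZ and had the larger difference. It measured 174.6, 159.4 and 185.1 CPM in vehicle replicates 1 to 3 and 112.1, 131.0 and 146.4 CPM in STZ replicates 1 to 3. The lowest vehicle sample thus stood above the highest STZ sample. The means were 173 ± 12.9 and 129.8 ± 17.2 CPM (SD, n = 3 each), a ratio of 0.750 with a 95% interval of 0.628 to 0.896. The log2 fold change was -0.41 with a standard error of 0.11, at an edgeR p of 0.00612 and an adjusted p of 0.301 (0.0635 with DESeq2). The difference was therefore past the unadjusted level and not past the adjusted one.

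Adora1 (gene 11539, chr1:134199215-134235457, minus strand) measured 191.3, 141.1 and 150.2 CPM in vehicle and 140.7, 124.8 and 134.0 CPM in STZ. The groups were parted by the gap between 140.7 and 141.1 CPM alone, and vehicle replicate 1 stood well above the other samples. On average 161 ± 26.8 CPM stood against 133 ± 8.0, a log2 fold change of -0.27 with a 95% interval of -0.55 to 0.0084 and an adjusted edgeR p of 0.457. The TPM of Adora2b was 2.49 to 3.83 times that of Adora1 within a sample, with 3.40 ± 0.504 in vehicle and 3.04 ± 0.483 in STZ (SD, n = 3 each), so the 2 receptors kept their order in every sample.

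Of the receptors for ATP and ADP, P2ry1 (gene 18441, chr3:61002785-61008982, plus strand) had the largest log2 fold change of the 10 genes. Its CPM was 18.7, 15.6 and 13.5 in vehicle and 10.8, 10.3 and 12.97 in STZ, from 599 to 1004 raw counts. Vehicle replicate 3 and STZ replicate 3 lay close together, and the other samples were further apart. Means of 15.9 ± 2.65 and 11.4 ± 1.42 CPM gave a ratio of 0.713 (95% interval 0.550 to 0.923). The log2 fold change was -0.49 with a standard error of 0.16, at an edgeR p of 0.0169 and an adjusted p of 0.349 (0.140 with DESeq2).

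P2rx4 (gene 18438, chr5:122707518-122729739) and P2rx7 (gene 18439, chr5:122643927-122692336) lie 15181 bases apart on chromosome 5 on the plus strand, with 1 RefSeq gene between them. Both were not called, and the groups of each overlapped. P2rx4 measured 41.9, 29.9 and 37.6 CPM in vehicle and 30.6, 34.1 and 32.8 CPM in STZ, so that all STZ samples lay within the vehicle range. Its log2 fold change was -0.17 (95% interval -0.46 to 0.13). P2rx7 measured 34.0, 23.4 and 26.7 CPM in vehicle and 33.7, 29.9 and 18.4 CPM in STZ. It was the most variable of the 10 genes, with a coefficient of variation of 19.2% in vehicle and 29.1% in STZ. Its log2 fold change of -0.04 had an interval of -0.58 to 0.50, so that a difference of 1.4-fold in either direction lay within it.

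Microglia are known for P2rx4 and P2rx7, and the level of P2rx7 is given here beside microglial genes. P2rx7 was at 18.1, 11.8 and 12.99 TPM in vehicle and 19.8, 17.4 and 9.79 TPM in STZ. Itgam (CD11b) was at 11.97, 8.79 and 13.9 TPM and at 12.1, 14.9 and 7.74 TPM in the same order. STZ replicate 3 was the lowest sample for both. The oligodendrocyte sum was 2091, 864 and 798 TPM in vehicle and 2900, 1038 and 1112 TPM in STZ. STZ replicate 1 was highest and vehicle replicate 1 next for both this sum and the TPM of P2rx7. STZ replicate 3 was not the lowest for this sum. Of 12 microglial markers, 4 were higher and 8 lower in STZ, none with an unadjusted p under 0.05 and none at 0. The part of microglial or oligodendrocyte RNA in the values of P2rx7 was not tested. The microglial ADP receptor P2ry12 stood at 50.5 to 101 TPM, which was 6.64 to 13.5 times the level of P2ry1 within a sample, with a log2 fold change of -0.09.

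The cell-surface enzymes differed by small amounts between the groups. Entpd2 (gene 12496, chr2:25395874-25401323, plus strand) measured 523.5, 459.5 and 468.8 CPM in vehicle and 442.2, 455.3 and 428.5 CPM in STZ. The groups were apart by the gap between 455.3 and 459.5 CPM, and on the TPM scale they overlapped. Means of 484 ± 34.6 and 442 ± 13.4 CPM gave a log2 fold change of -0.13 with a standard error of 0.0802 and an adjusted edgeR p of 0.565. Entpd1 (gene 12495, chr19:40612366-40741602, plus strand) lay the other way, with 27.2, 22.2 and 25.9 CPM in vehicle and 28.4, 30.0 and 26.6 CPM in STZ. Only the overlap of vehicle replicate 1 with STZ replicate 3 kept its groups together, and its log2 fold change was 0.17 (95% interval -0.06 to 0.41, adjusted edgeR p 0.551). Entpd1 is also found in endothelial cells and microglia, and the endothelial sums given above ran higher in STZ; their part in its value was not tested. Nt5e (gene 23959, chr9:88327609-88372089, plus strand) was the least expressed, with 299 to 411 raw counts, and measured 5.58, 6.82 and 6.005 CPM in vehicle and 5.80, 5.74 and 7.00 CPM in STZ. The Nt5e groups covered each other at a log2 fold change of 0.01 (95% interval -0.38 to 0.41).

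Reads at Entpd1 and P2rx4 could be shared with other genes, since use of strand in the counting was not given in the sources used here. A pseudogene within Entpd1, Gm8783, overlaps it by 2824 bases and had 1073 to 1304 counts per sample, close to the 1154 to 1746 of Entpd1 itself. With the counts of both added, the log2 ratio of the Entpd1 means went from 0.17 to 0.08. Camkk2 on the opposite strand overlaps P2rx4 by 11360 bases and had 505 to 746 counts, and adding it moved the log2 ratio of P2rx4 from -0.17 to -0.10. The partners of P2rx7, Adk and Adora1 that were in the table had at most 53 counts and left the second decimal of their ratios as it was.

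The clearance genes were not called either. Adk (gene 11534, chr14:21052574-21448569, plus strand) measured 426.7, 368.1 and 375.4 CPM in vehicle and 397.9, 438.2 and 420.0 CPM in STZ. Vehicle replicate 1 lay inside the STZ range and the other vehicle samples below it. Its means of 390.1 ± 32.0 and 419 ± 20.2 CPM gave a ratio of 1.07 (95% interval 0.934 to 1.23, adjusted edgeR p 0.677). Slc29a1 (gene 63959, chr17:45585200-45599618, minus strand) measured 68.7, 54.3 and 58.7 CPM in vehicle and 59.6, 53.1 and 47.9 CPM in STZ, and the groups overlapped. Its ratio was 0.884 (95% interval 0.734 to 1.06, adjusted edgeR p 0.585). Adenosine deaminase (Ada), the enzyme that removes adenosine by the other route, was at 0.548 to 1.91 TPM, and Adk stood 270.0 to 935 times higher within a sample.

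Ratios of TPM within a sample, picked after their values were seen and given without a test, set the enzymes against each other. Entpd2 over Adk was 1.175, 1.2003 and 1.1999 in vehicle and 1.06, 0.993 and 0.971 in STZ. Every vehicle sample thus had more Entpd2 than Adk, and the STZ samples lay around equality. Entpd2 over Entpd1 was 42.8, 45.3 and 39.6 in vehicle and 34.4, 33.5 and 35.8 in STZ, with no overlap. All other ratios taken had groups that overlapped. They were Adora2b over Adora1, P2rx4 over P2rx7, Adk over Ada, Alpl over Nt5e and P2ry12 over P2ry1. How often ratios of any 2 genes part the groups was not computed. Both ratios share Entpd2, and the second takes in the reads that Entpd1 may share with Gm8783.

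Vehicle replicate 1 held the highest CPM of P2ry1, P2rx4, P2rx7, Adora1, Entpd2 and Slc29a1 among all 6 samples. The same sample had the highest astrocyte sum (18002.5 TPM) and microglial sum (1325 TPM) and the lowest choroid and ependymal sum (10623 TPM). Its oligodendrocyte sum (2091 TPM) came next after that of STZ replicate 1 (2900 TPM). The part of these in the values was not tested. Without it the log2 fold changes of these genes lay nearer to 0, except for P2rx7, which turned from -0.04 to 0.12. They went from -0.49 to -0.36 for P2ry1, from -0.27 to -0.13 for Adora1 and from -0.17 to -0.06 for P2rx4. For Slc29a1 the value went from -0.18 to -0.08 and for Entpd2 from -0.13 to -0.07. Adora2b, which was not highest in that sample, stayed at -0.41. Since the other genes here were picked as highest in that vehicle sample, their upward shift followed from the choice. The contrast with Adora2b is thus not a test.

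Of 48 further genes of the pathway, listed by role, 44 had a count in every sample, and edgeR called 0 of them at the same threshold. At an unadjusted p under 0.05, 5 were lower and 4 higher in STZ, 9 of 44 where 11.3% of all genes had such a p. Of their log2 fold changes 27 were negative, with a median of -0.08, where 48.1% of all genes were negative. By CPM, 12 of the 44 had groups apart, 6 in each direction, where 18.5% of all genes did. P2rx2, P2ry4, Entpd8 and Slc28a1 lacked counts in some samples and were not tested, and P2ry4 was at 0 in all.

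Among the receptors, P2ry2, which answers ATP and UTP, had the smallest unadjusted p of the list. It measured 3.54, 3.12 and 3.16 CPM in vehicle and 1.78, 1.51 and 1.67 CPM in STZ, from 88 to 190 raw counts. No STZ sample came near the vehicle range, and the means were 3.27 ± 0.233 and 1.65 ± 0.135 CPM. The log2 fold change was -0.98 with a standard error of 0.20 and an adjusted edgeR p of 0.214. It was the gene of the list that DESeq2 called, at an adjusted p of 0.00500. The other P2X channels, led by P2rx6 (13.3 to 16.3 TPM) with P2rx1 far below it (mean 0.639 TPM), did not reach an unadjusted p under 0.05. Nor did the adenosine receptors Adora2a and Adora3, at 2.099 to 4.77 and 0.365 to 1.10 TPM, or the ADP receptor P2ry13, at 15.7 to 30.8 TPM.

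The 4 genes of ATP release, which form or fill the routes by which ATP leaves a cell, all had positive log2 fold changes. Lrrc8a, a subunit of volume-regulated anion channels, measured 49.1, 45.3 and 45.7 CPM in vehicle and 63.5, 58.9 and 51.6 CPM in STZ. The pannexin Panx1 measured 3.06, 2.83 and 3.74 CPM in vehicle and 5.14, 5.69 and 3.98 CPM in STZ. For both, every STZ sample was above every vehicle sample. Their log2 fold changes were 0.31 and 0.62, at adjusted edgeR p of 0.317 and 0.373, and that of Panx2, at 9 to 41 raw counts, was 1.24 at 0.328. None passed the threshold.

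Hprt, the purine salvage enzyme, stood at 92.1 to 198 TPM. Ahcyl1, Ahcyl2 and the AMP deaminase Ampd2, listed as intracellular, were lower in STZ, with log2 fold changes of -0.26, -0.46 and -0.29. The Ahcyl2 groups overlapped, at 154.2, 242.5 and 203.8 CPM in vehicle and 141.3, 118.4 and 176.7 CPM in STZ. Ahcyl1 and Ahcyl2 were listed only as relatives of Ahcy, the hydrolase that yields adenosine from S-adenosylhomocysteine. Ahcy itself had a log2 fold change of 0.005. The adenine salvage enzyme Aprt was higher at 0.45, from 20.9 ± 2.72 to 28.6 ± 3.59 CPM. For Ahcyl1, Ahcyl2, Ampd2 and Aprt the unadjusted edgeR p were under 0.05 and the adjusted edgeR p between 0.324 and 0.436. Not all genes grouped here with the ectoenzymes act at the cell surface. Of that group, Entpd5 was lower by the same measure, with a log2 fold change of -0.31 and an adjusted edgeR p of 0.301.

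Alpl, the alkaline phosphatase that can also make adenosine from AMP, was 32.2 to 56.7 times as high as Nt5e in TPM within a sample, and measured 189 ± 32.1 CPM in vehicle and 156 ± 4.03 in STZ (log2 fold change -0.27, adjusted edgeR p 0.448). Enpp2, best known for making lysophosphatidic acid, had the highest level of all the purine genes. Its TPM was 3359, 7267 and 6387 in vehicle and 3635, 2717 and 4976 in STZ, and that of Ttr was 10066, 27327 and 28667 and then 18993, 15365 and 25918. Vehicle replicate 1 was the lowest vehicle sample for both genes and STZ replicate 2 the lowest STZ sample. The choroid and ependymal list was not uniform in this, since Foxj1, Tmem212, Ccdc153 and Rarres2 were lowest among the STZ samples in replicate 3. Of the nucleoside transporters other than Slc29a1, Slc29a3 (32.0 to 41.2 TPM) and Slc29a4 (20.5 to 55.5 TPM) were the most abundant. No transporter reached an unadjusted p under 0.05. Slc29a4 was at 24.0, 55.5 and 49.0 TPM in vehicle and 36.2, 20.5 and 34.4 TPM in STZ. Like Ttr, it was lowest in replicate 1 of vehicle and replicate 2 of STZ. The part of choroid plexus RNA in the Slc29a4 level was not tested.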

How the data were processed

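RNA sequencing of sorted astrocytes was analysed for 3 vehicle and 3 STZ samples, grouped by the sample labels. According to the submitters' processing notes, Trimmomatic 0.38, HISAT2 2.1.0, SAMtools 1.9 and StringTie 2.1.3b were used with mm10. The labels name the SMART-Seq mRNA kit and the study's methods a TruSeq v2 and a SMART-Seq v4 kit. The annotation and the use of strand were not given in the sources used here. The deposited counts are whole-number reads per gene, made by the authors without normalization. The authors also deposited TPM, which served for levels, and FPKM, which was not used. Steps by which the study removed outlier genes were not repeated.

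The two-sided quasi-likelihood test of edgeR 4.0.16 (R 4.3.3, TMM factors, a model of group alone) was run on the 22337 genes that had a read in each of the samples, and p-values were adjusted over them by Benjamini-Hochberg. The code was first tested on simulated data. Non-overlap means that every sample of one group lay above every sample of the other. A share of 3 counts is 0.0511 to 0.0571 CPM, which covers counting error only, and depth was ample for these genes. No pair of samples was a duplicate, with chi-square values of 17.2 to 88.7 per gene between their counts. Coordinates and promoters are from RefSeq (GRCm38.p6, the assembly of mm10), in which all 10 genes were found by NCBI gene number.

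The members, the pathway list and the marker lists were chosen with earlier results of these data known. All members are named. Of the other pathway genes, those with an unadjusted p under 0.05, the 2 most abundant of each role, P2ry12 and those without counts were to be named. Ada and the ratios were picked after their values were seen. Alternatives were DESeq2 1.42.0, its size factors in edgeR, no filter, filterByExpr, a replicate block, limma 3.58.1 on log2(TPM + 0.1) and log2(TPM + 1), no fold limit and leaving out each sample.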

Additional observations from a re-analysis of the deposited data

How the results depend on the processing

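The count of members past the threshold was 0 under every alternative run. Of the other pathway genes, DESeq2 called 1 (P2ry2) and the other alternatives 0. Over all genes, where 5 were called, DESeq2 called 234, the replicate block 0 and limma on log2(TPM + 0.1) and on log2(TPM + 1) 0 each, and leaving out a sample gave 0 to 1; the cause was not tested. Members with an unadjusted p under 0.05, counted as an alternative added after seeing the data, were 2, and 3 with DESeq2 or the replicate block. They were 1 without vehicle replicate 1, STZ replicate 1 or STZ replicate 2 (Adora2b each time) and 4 without vehicle replicate 2 (Adora1, Adora2b, P2rx4 and P2ry1). Over the alternatives the adjusted p ran from 0.0635 to 0.626 for Adora2b and from 0.140 to 0.656 for P2ry1. With 1 sample left out, the log2 fold change was -0.51 to -0.32 for Adora2b, -0.61 to -0.36 for P2ry1 and -0.37 to -0.13 for Adora1. Of the 10 members, 8 kept their direction in all 13 alternatives. P2rx7 turned to 0.091 and 0.088 in limma on log2(TPM + 0.1) and log2(TPM + 1), and ran from -0.22 without STZ replicate 1 to 0.18 without STZ replicate 3; Nt5e ran from -0.088 without STZ replicate 3 to 0.082 without vehicle replicate 2. Replicate numbers are shared by the groups, but the deviations of same-numbered samples correlated at -0.101, -0.162 and -0.184, so the numbers were not taken as pairs. With the replicate block the adjusted p was 0.599 for Adora2b and 0.619 for P2ry1. With 3 pools a group, 8 of the 10 members' 95% intervals lay within a fold of 1.5 in both directions. For 8 members the interval included no change, so that a difference within it could not be told from none. The intervals are per gene, without adjustment over genes, and do not give the smallest difference that could be called. Those of Adora2b and P2ry1 excluded no change, and neither gene was called.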
